A study of Mus musculus with 400 samples.

Results

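The 10 genes described here are immediate early genes: Fos, Fosb, Jun, Junb, Jund, Egr1, Ier2, Ier3, Btg2 and Nr4a1. They were chosen by name as genes known to respond to tissue dissociation, and all 10 were found among the 24754 gene rows used. They were followed in 371 of 394 single cells, those with at least 500 detected genes. The cells carried the red reporter tdTomato and were sorted from the cervical dorsal root ganglia (DRG, the ganglia that hold the cell bodies of sensory neurons) of 6 naive mice aged 6 to 12 weeks. The mice carried Nav1.8-Cre and the R26CAG-floxStop-tdTomato allele (strain Nav1.8-Cre.Ai14), so that Cre under control of Scn10a, the gene of the sodium channel Nav1.8, marks every cell in which that gene has been active, mostly nociceptors. Of the 4 sequencing runs, run 1 held the mice named Blue and Red (254 kept cells together). Control (50 cells) was alone in run 2, Control6 (25 cells) was alone in run 4, and run 3 paired Control1 (19 cells) with Control2 (23 cells). The name Control marks no treatment. Every cell went through enzymes (liberase TL, dispase II, papain and DNase I), mechanical agitation, sorting and freezing in liquid nitrogen, and no cell without dissociation was analysed here. The levels below are therefore levels after dissociation in 1 condition, and they hold no measure of how far dissociation changed them.

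Immediate early genes are transcribed within minutes of a stimulus without new protein synthesis, when kinases activate factors already bound at their promoters, such as the serum response factor and CREB. Fos and Jun proteins pair to form the transcription factor AP-1, Egr1 and Nr4a1 are further transcription factors of the first wave, and other members of the group restrain growth or signalling. In sensory neurons these genes respond to electrical activity, growth factors, injury and the removal of the ganglion, which cuts the axons.

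The promoters of 8 of the 10 genes were matched in RefSeq (GRCm38.p6), and those of Ier2 and Egr1 were not printed. Shown are the 170 bases before the RefSeq start for the 5 genes on which the comparisons between neuron classes turn, each 5′ to 3′ on the strand of its gene. Capitals mark matches, on either strand, to the cyclic AMP response element TGACGTCA, its half-site TGACG (which lies within it), the AP-1 site TGANTCA, the EGR site GCGNGGGCG and the TATA box TATAAA. The CArG box, the core of the serum response element, was searched by name. The stretches are chr12:85473720-85473889 (plus strand) for Fos, chr4:95052223-95052392 (minus strand) for Jun, chr8:84978749-84978918 (minus strand) for Junb, chr1:134079156-134079325 (minus strand) for Btg2 and chr17:35821543-35821712 (plus strand) for Ier3.
Fos: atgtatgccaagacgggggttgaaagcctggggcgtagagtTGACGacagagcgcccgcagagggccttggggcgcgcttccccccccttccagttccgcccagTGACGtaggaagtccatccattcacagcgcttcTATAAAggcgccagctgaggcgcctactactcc
Jun: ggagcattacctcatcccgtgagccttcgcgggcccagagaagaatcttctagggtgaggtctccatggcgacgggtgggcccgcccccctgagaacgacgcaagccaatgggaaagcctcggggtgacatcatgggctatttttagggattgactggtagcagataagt
Junb: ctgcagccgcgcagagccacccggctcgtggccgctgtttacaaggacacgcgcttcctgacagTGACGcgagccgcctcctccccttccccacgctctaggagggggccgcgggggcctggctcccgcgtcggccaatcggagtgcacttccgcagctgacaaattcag
Btg2: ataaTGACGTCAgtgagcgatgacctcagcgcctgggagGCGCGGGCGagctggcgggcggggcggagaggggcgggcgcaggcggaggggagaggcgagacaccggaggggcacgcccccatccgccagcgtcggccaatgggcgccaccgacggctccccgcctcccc
Ier3: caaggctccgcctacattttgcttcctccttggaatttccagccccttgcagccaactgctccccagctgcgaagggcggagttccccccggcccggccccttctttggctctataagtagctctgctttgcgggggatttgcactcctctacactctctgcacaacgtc

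Motifs were counted in the window from 250 bases before to 50 bases after the start. The half-site of the cyclic AMP response element, which CREB and related factors can bind, was found in 5 of the 8 promoters (Fos, Fosb, Junb, Btg2 and Nr4a1), against 20.8% of 32851 mouse promoters of the same length. Fos held 2 copies within the stretch above, with first bases 129 and 66 bases before the start. The complete element was found in 1 of the 8, Btg2, where it began 166 bases before the start, and in 1.79% of all promoters. EGR sites were found in 3 of the 8 (Fosb, Btg2 and Nr4a1) and in 5.55% of all promoters. A TATA box was found in 2 of the 8 (Fos and Junb) and in 13.6% of all promoters. In Junb it began at the RefSeq start, outside the stretch shown and upstream of the start in the GENCODE vM21 annotation (84978718). GENCODE vM21 also starts Btg2 downstream of its RefSeq start, at 134079120, and Ier3 within the stretch shown, at 35821684. No AP-1 site (7.81% of all promoters) and no CArG box (1.63%) was found in any of the 8, which says only that these letters are not in this window. No match was found in the stretches of Jun and Ier3. A match is a description of letters and was not tested as a site.

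The median depth of the 371 cells was 30397 recovered counts, between 909 and 324939, with 6580 genes detected at the median. At that depth 1 count equals 32.9 CPM, the scale of all levels below, on which the counts of a cell are brought to the same total for every cell. The median per mouse ranged from 24660 counts in Control2 to 42416 in Control. The 10 neuronal marker genes summed to a mean of 12543 CPM per cell. The summed markers of satellite glia, the cells that wrap each sensory neuron, had a mean of 1313 CPM and a mouse mean between 416 and 2956 CPM. Schwann cell markers summed to 1145 CPM, macrophage markers to 7.43 CPM and endothelial markers to 1.59 CPM. Shallow cells matter for the results below: 10 kept cells held fewer than 5000 counts, 9 of them in Control and 1 in Control1, and in such a cell a single count stands for a high CPM. Values without these 10 cells are given beside the main results they change. Levels are not per transcript length, so they are compared between cells and mice and not between genes.

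Of the Fos family, whose proteins need a Jun partner to bind DNA, Fos (chromosome 12, 85473890 to 85477273 in GENCODE vM21 on GRCm38) had at least 1 count in 258 of 371 cells (69.5%, exact 95% interval 64.6% to 74.2%) and a mean of 114.1 CPM. Fosb (chromosome 7, 19302696 to 19310051) had a count in 41.5% of cells and a mean of 34.5 CPM. In the Jun family, Jun (chromosome 4, 95049034 to 95052222) had a count in 86.5% of cells and a mean of 246 CPM. Junb (chromosome 8, 84974484 to 84978718) had a count in 78.4% and a mean of 93.3 CPM. Jund (chromosome 8, 70698949 to 70700616), known as the most constitutive Jun gene, had a count in 95.1% and a mean of 191 CPM. The zinc finger factor Egr1 had a count in 50.9% of cells and a mean of 66.8 CPM. Nr4a1 (chromosome 15, 101254269 to 101274795), an orphan nuclear receptor, had a count in 15.9% and a mean of 10.9 CPM. The group was completed by Ier2, Ier3 and Btg2. Ier2 (chromosome 8, 84661331 to 84662852), a nuclear protein, had a count in 26.95% of cells and a mean of 13.7 CPM. Ier3 (chromosome 17, 35821684 to 35822923), a regulator of survival and ERK signalling, had a count in 53.4% and a mean of 44.5 CPM. Btg2 (chromosome 1, 134075170 to 134079120), an antiproliferative protein of the BTG/TOB family, had a count in 25.3% and a mean of 16.8 CPM.

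The genes differed in how evenly cells shared them. The 10% of cells with the highest Jund level held 23.7% of all Jund CPM, whereas the same share of cells held 87.4% of all Nr4a1 CPM, 72.9% of Btg2, 65.6% of Fosb and Ier2, 58.5% of Egr1, 48.1% of Fos, 42.1% of Jun, 41.3% of Ier3 and 37.8% of Junb. The median Jund level was 176 CPM with quartiles of 109 and 246 CPM. The median Fos level was 55.5 CPM, with a lower quartile of 0, an upper quartile of 140.1 and a 90th percentile of 286 CPM. A cell had a count of a median of 5 of the 10 genes. In 64 cells (17.3%) at least 8 genes had a count, in 11 cells all 10 had one, and in 3 cells none had. Depth sets part of these shares. After thinning of the 342 cells with at least 10000 counts to that number, the share of cells with a count was 45.03% for Fos, 61.7% for Jun, 82.2% for Jund, 31.6% for Egr1 and 7.02% for Nr4a1.

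The plot of mean levels by mouse shows all 10 genes.

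**Figure D1:**
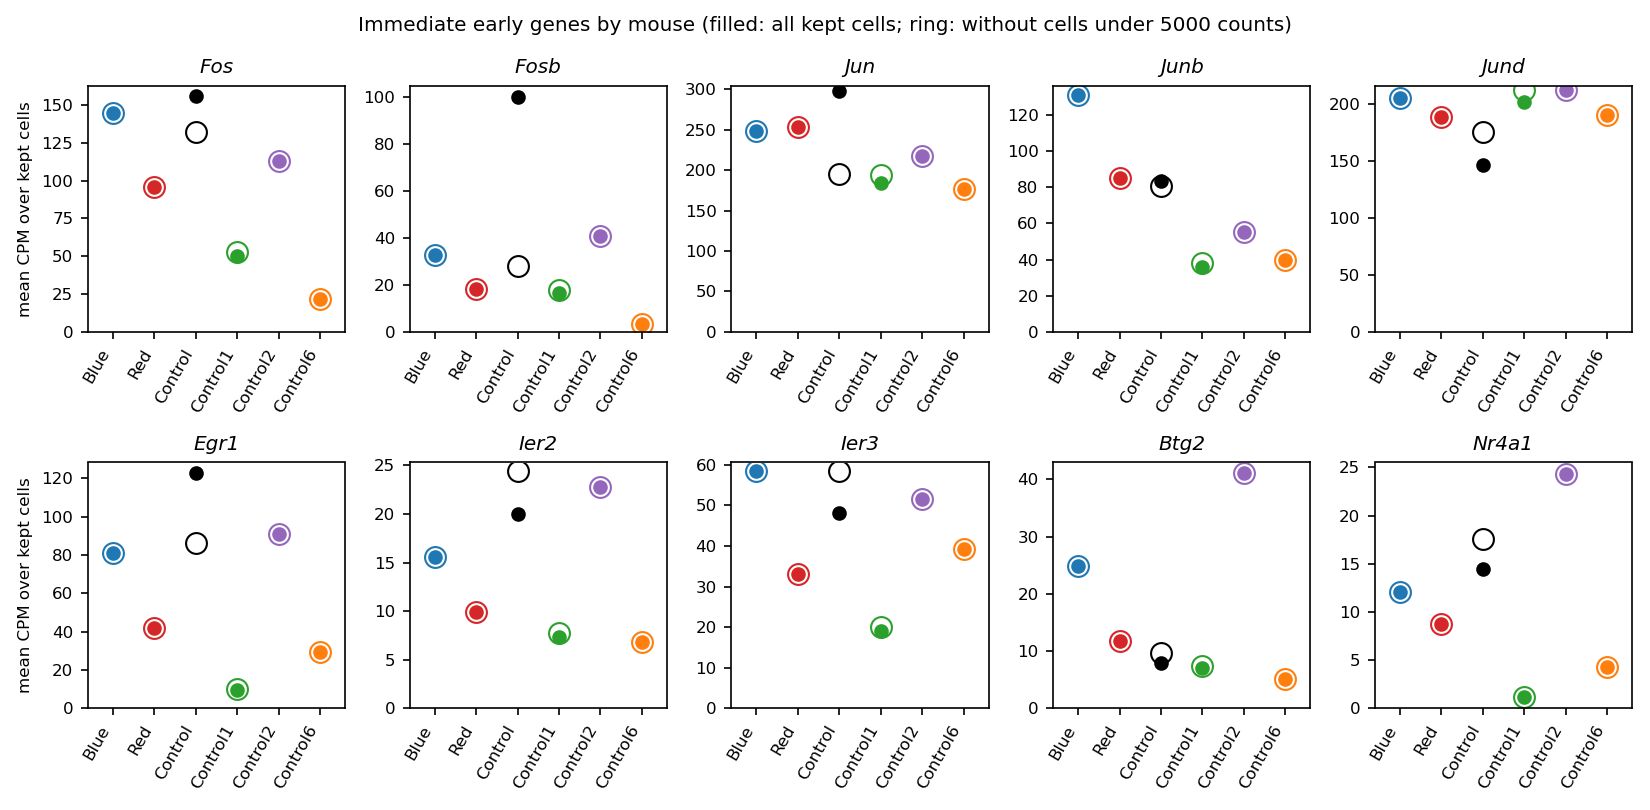
Mean level of each immediate early gene (CPM, vertical axes start at 0) over the kept cells of each of the 6 mice; filled points use all kept cells and rings leave out cells under 5000 counts. Fos, Fosb, Egr1 and Nr4a1 have their lowest 2 mice in Control1 and Control6, and the filled Fosb point of Control at 99.7 CPM falls to 28.2 CPM without shallow cells.

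Fos was lowest in Control6 (21.9 CPM), had a median over mice of 104.2 CPM and was highest in Control (156 CPM), and its mean was 96.8 ± 52.6 CPM (SD, n = 6 mice). Egr1 was lowest in Control1 (9.47 CPM), had a median of 61.7 CPM and was highest in Control (122.7 CPM). Both genes were low in Control1 and Control6 and high in Control, Control2 and Blue. Nr4a1 ranged from 1.16 CPM in Control1 to 24.3 CPM in Control2, and Fosb from 3.36 CPM in Control6 to 99.7 CPM in Control. Junb ranged from 36.2 CPM in Control1 to 131 CPM in Blue. The Jun and Jund levels varied less, Jun from 177 CPM in Control6 to 298 CPM in Control (mean 229.5 ± 45.9, SD, n = 6) and Jund from 147 CPM in Control to 212 CPM in Control2 (mean 191 ± 23.3, SD, n = 6).

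Part of these extremes came from shallow cells. Without the 10 cells under 5000 counts, Fosb in Control was 28.2 CPM in place of 99.7, and its highest mouse became Control2 at 40.7 CPM. Jund in Control was 176 CPM in place of 147, and Jun in Control was 195 CPM in place of 298. Fos in Control was 132 CPM and Egr1 86.4 CPM, both still above the levels in Control1 and Control6. The 3 highest Fosb cells show how this happens: a Control cell with 2 Fosb counts of 1165 in all stood at 1720 CPM and another with 2 of 1412 at 1402 CPM, while the third, a Blue cell with 6 Fosb counts of 14320, stood at 419 CPM. The mice Blue and Red, of the same run, also differed: the level in Blue was 2.09 times that in Red for Btg2, 1.93 times for Egr1, 1.79 times for Fosb, 1.77 times for Ier3, 1.51 times for Fos and 0.981 times for Jun. With 1 mouse in runs 2 and 4, mouse and run cannot be told apart there, and no test between mice was made.

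Levels in neuron classes were compared through 5 gates on marker genes. The Mrgprd gate (at least 200 CPM) takes nonpeptidergic nociceptors, the Mrgpra3 gate (at least 50 CPM) itch-related neurons that respond to chloroquine, and the Sst/Nppb gate (either at least 100 CPM) another class of itch neurons. The Th gate (at least 100 CPM) takes C-fibre low-threshold mechanoreceptors, and the Calca/Tac1 gate (Calca at least 2000 and Tac1 at least 1000 CPM) takes peptidergic nociceptors. Of the kept cells, 321 passed exactly 1 gate, 5 passed 2 and 45 passed none. The Mrgprd gate alone was passed by 29.9% of kept cells (Red 34, Blue 31, Control 18, Control6 11, Control2 9 and Control1 8 cells). The other gates alone held 44 cells for Mrgpra3, 45 for Sst/Nppb, 37 for Th and 84 for Calca/Tac1. A mouse entered a gate with at least 3 cells: 6 mice for Mrgprd and Calca/Tac1, 4 for Sst/Nppb (Blue, Red, Control and Control1), and for Mrgpra3 and Th only Blue and Red. Median depth differed, with 46172 counts in the Mrgprd gate, 39383 in Mrgpra3, 16991 in Sst/Nppb, 32480 in Th and 19663 in Calca/Tac1. The mean satellite glia sum was 739, 1023, 622, 1182 and 1656 CPM in the same order, and the Schwann cell sum, whose list holds genes that neurons also use, was 2701 CPM in the Th gate and 472 to 1019 CPM in the others. Depth and satellite glia are taken up below with the values for thinned cells and without glia-rich cells, and the part of the Schwann cell sum in the differences was not tested.

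**Figure D2:**
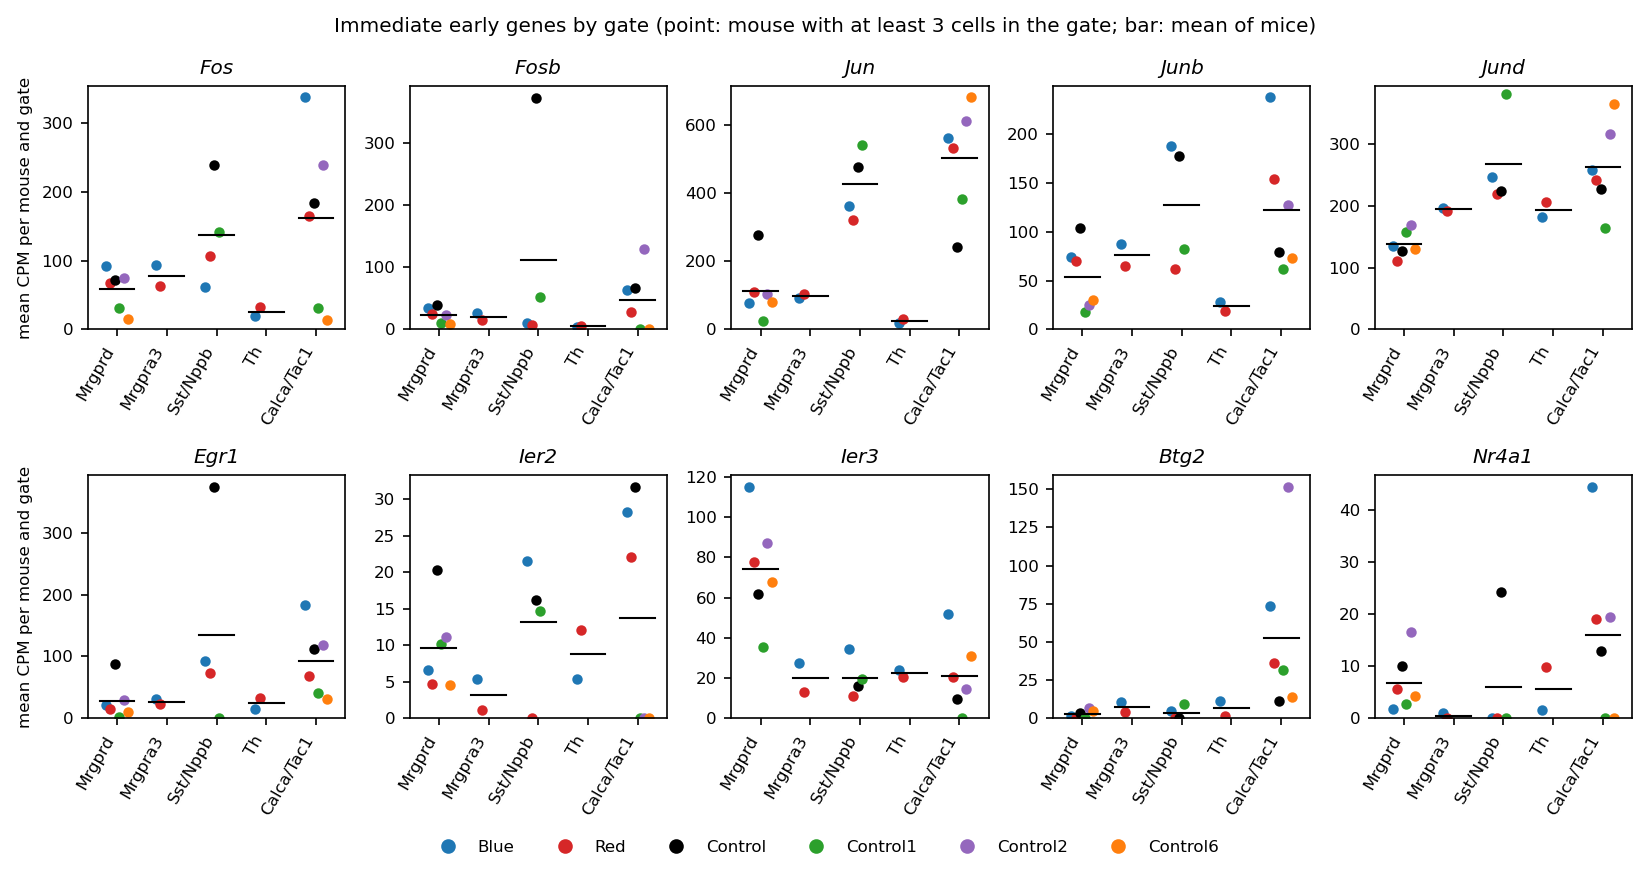
Mean level per mouse (CPM, vertical axes start at 0) of each immediate early gene in the cells of each gate; a point is a mouse with at least 3 cells in the gate, coloured by mouse, and the bar is the mean of the mice. Jun lies above 200 CPM in every mouse of the Sst/Nppb and Calca/Tac1 gates and at 30.2 CPM or less in both mice of the Th gate, and Ier3 is high in the Mrgprd gate.

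Jun divided the classes most. Its mouse means in the Calca/Tac1 gate had a lowest value of 242 CPM, a median of 547 and a highest value of 681 (mean 502 ± 162, SD, n = 6). In the Sst/Nppb gate they were 363 CPM in Blue, 321 in Red, 477 in Control and 540.0 in Control1. In the Mrgprd gate the lowest value was 22.7, the median 91.1 and the highest 275 CPM. The values were 91.7 CPM in Blue and 103.5 in Red for the Mrgpra3 gate, and 18.1 CPM in Blue and 30.2 in Red for the Th gate. Thus the Sst/Nppb values lay above those of every mouse in the Mrgprd, Mrgpra3 and Th gates, the Calca/Tac1 values overlapped the Mrgprd range only through Control, and both Th values lay below both Mrgpra3 values. Each of the 45 Sst/Nppb cells and each of the 84 Calca/Tac1 cells had a Jun count (exact 95% lower bounds 92.1% and 95.7%), against 43.2% of Th cells. At equal depth the shares were 90% and 88.6% against 18.9%, with 56.2% in the Mrgprd and 44.2% in the Mrgpra3 gate.

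Junb in the Calca/Tac1 gate had a lowest mouse mean of 61.5 CPM, a median of 103.6 and a highest of 239, and in the Mrgprd gate 17.3, 50.02 and 103.6 CPM. Its Sst/Nppb values were 189 CPM in Blue, 61.5 in Red, 178 in Control and 82.6 in Control1, and its Mrgpra3 values 87.6 CPM in Blue and 65.3 in Red. The ranges of these gates overlapped.

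Egr1 in the Calca/Tac1 gate had a lowest value of 30.8 CPM, a median of 90.3 and a highest of 183, and in the Mrgprd gate 2.75, 18.5 and 87.4 CPM. In the Sst/Nppb gate it was 92.2 CPM in Blue, 72.4 in Red, 374 in Control and 0 in Control1, where 3 counts would have given 52.3 CPM. The Control value rests on 1 cell with 2 Egr1 counts of 1412 and was 32.1 CPM without it. Fos in the Calca/Tac1 gate ranged from 13.6 CPM in Control6 to 338 CPM in Blue, with a median of 174.7, and in the Mrgprd gate from 15.1 to 91.6 CPM, with a median of 69.96.

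Jund varied least. In the Mrgprd gate its lowest value was 110.01 CPM, its median 132.5 and its highest 169, and in the Calca/Tac1 gate 164, 250.1 and 364 CPM. Its Sst/Nppb values were 247 CPM in Blue, 219 in Red, 223 in Control and 381 in Control1, all above the Mrgprd range. The Mrgpra3 and Th values, from 183 to 205 CPM in Blue and Red, also lay above that range.

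Each gate was compared with the mean of the other 4 in 1 limma fit over 9156 genes with mouse as a block, on log2(CPM + 5). Differences on that scale understate the changes of low genes. The 5 comparisons share gates and are not independent, and gates were drawn on genes of the same cells. The filter on low values (a mean of at least 10 CPM over mice and gates) was passed by 9 of the 10 genes. Nr4a1, at 8.68 CPM, did not pass it and was not tested.

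In the Calca/Tac1 gate 4 of 9 genes were higher and none lower, where 7.47% of all genes tested were higher and 5.34% lower (12.8% in either direction). The median over the 9 genes was a log2 difference of 1.09, against 0.03 over all genes. Jun was higher by 2.16 on the log2 scale (SE 0.33, adjusted p = 0.000104), Btg2 by 2.08 (SE 0.39, adjusted p = 0.000756), Egr1 by 1.49 (SE 0.42, adjusted p = 0.0207) and Junb by 1.22 (SE 0.28, adjusted p = 0.00525). Fos stood at 1.09 (SE 0.36, adjusted p = 0.0518) and did not pass, and Jund, Fosb, Ier2 and Ier3 did not pass. Without the cells under 5000 counts 5 genes passed, Fos being the added one (1.23, adjusted p = 0.0201 by limma). In that fit 13.9% of all genes passed and 7.89% were higher. Egr1 did not pass with a pseudocount of 1 (adjusted p = 0.0572) or without the filter (0.0662). Within run 1 alone, 8 genes were higher, Jun by 2.47 and Btg2 by 2.75, in a fit that called more genes in both directions (12.7% of all genes higher, against 7.47%). Without Blue, or without Red, 1 gene passed in each case, and it was Jun (adjusted p = 0.0161 and 0.00882). Without Control1, 6 were higher (8.55% of all genes).

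In the Sst/Nppb gate 2 of 9 genes were higher and none lower, where 6.43% of all genes were higher, 13% lower and 19.5% passed in either direction. Jun was higher by 2.07 (SE 0.37, adjusted p = 0.000382) and Junb by 1.05 (SE 0.31, adjusted p = 0.0219). The 9 genes had a median of 0.83 and all genes one of -0.15. Junb did not pass without Blue (0.98, adjusted p = 0.249), without Control1 (0.86, adjusted p = 0.0873), in run 1 alone (0.56, adjusted p = 0.0523) or with thinned cells (0.82, adjusted p = 0.620), while Jun passed in each of these. Without the cells under 5000 counts 3 genes were higher, Jund being the added one (0.56, adjusted p = 0.0253), where 7.09% of all genes were higher. In run 1 alone the direction was mixed: Jun (1.63), Egr1 (1.14, adjusted p = 0.00742) and Jund (0.33, adjusted p = 0.0305) were higher, and Btg2 (-1.04, adjusted p = 0.00745), Fosb (-0.88, adjusted p = 0.0224) and Ier3 (-0.67, adjusted p = 0.0496) were lower, where 13.9% of all genes were higher and 20.4% lower. Fosb stood at 0.92 over all 4 mice (adjusted p = 0.355), so that its sign turned.

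In the Th gate 3 of 9 genes were lower and none higher, where 4.3% of all genes were lower, 4.49% higher and 8.79% passed in either direction. Jun was lower, at -2.87 (SE 0.48, adjusted p = 0.000418), as were Junb, at -1.94 (SE 0.41, adjusted p = 0.00382), and Fos, at -1.89 (SE 0.52, adjusted p = 0.0241). The Junb levels were 28.4 CPM in Blue and 19.1 in Red, and the Fos levels 18.8 and 31.9 CPM, in each mouse the lowest of its 5 gates. The 9 genes had a median of -0.92, against 0.03 over all genes. Only Blue and Red had enough Th cells. Without Blue no gene passed (Jun adjusted p = 0.138), and without Red 1 did (Jun, adjusted p = 0.0498). The Fos call was also lost without the filter on low values (adjusted p = 0.0764), with mean log values (0.158), with cells of several gates kept (0.0728), with thinned cells (0.0546), without glia-rich cells (0.0519) and without the mouse block (0.221). Within run 1 alone 5 genes were lower, where 16% of all genes were.

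In the Mrgprd gate 1 of 9 genes was higher and 1 lower, where 7.19% of all genes were higher, 4.98% lower and 12.2% passed in either direction. Ier3 was higher by 1.83 (SE 0.34, adjusted p = 0.000803) and Jund lower, at -0.80 (SE 0.17, adjusted p = 0.00196). Without Blue neither passed (adjusted p = 0.0678 and 0.0505), without Red Jund did not (0.116), and without Control 4 genes passed (13.5% of all genes). Without the cells under 5000 counts 3 passed, Jun being added on the lower side (-0.91, adjusted p = 0.0329), where 13.4% of all genes passed. In the Mrgpra3 gate none of 9 genes passed by limma (2.81% of all genes did) and none had an unadjusted p under 0.05; edgeR on recovered counts called 1 gene (18.2% of all genes) and DESeq2 none. In run 1 alone 1 gene was higher and 4 lower in the Mrgprd gate, where 20.2% of all genes passed, and 1 was lower in the Mrgpra3 gate, where 18.4% passed.

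**Figure D3:**
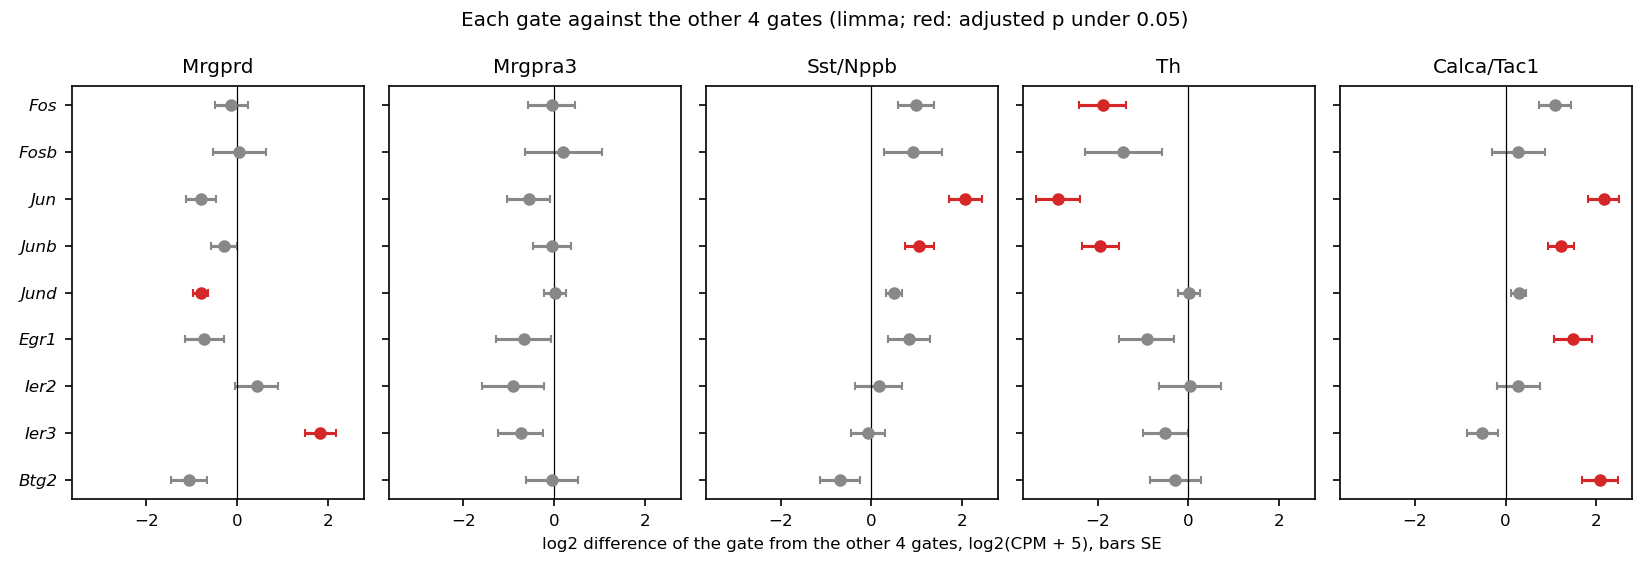
Log2 difference of each gate from the mean of the other 4 gates for the 9 genes tested (horizontal axis, log2(CPM + 5) scale; bars are SE; limma, red where the adjusted p is under 0.05). Jun is at 2.16 in the Calca/Tac1, 2.07 in the Sst/Nppb and -2.87 in the Th gate, and Ier3 at 1.83 in the Mrgprd gate.

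Ier3 had a pattern of its own. In the Mrgprd gate its mouse means had a lowest value of 35.3 CPM, a median of 72.7 and a highest value of 115.1 (mean 74.1 ± 26.6, SD, n = 6), and 86.5% of the cells had a count. In the Calca/Tac1 gate the lowest value was 0, the median 17.6 and the highest 51.6 CPM. The Sst/Nppb values were 34.5 CPM in Blue, 10.9 in Red, 16.2 in Control and 19.4 in Control1, the Mrgpra3 values 27.4 and 12.9 CPM and the Th values 24.2 and 20.6 CPM in Blue and Red. In every mouse the Mrgprd value lay above those of its other gates, although across mice the ranges of the Mrgprd and Calca/Tac1 gates overlapped. Pairwise contrasts of the same fit, added after the data were seen, gave Ier3 higher in the Mrgprd gate than in Calca/Tac1 by 1.87 (adjusted p = 0.000649) and than in Sst/Nppb by 1.53 (adjusted p = 0.0147). It was higher than in Mrgpra3 by 2.06 (adjusted p = 0.0426) and than in Th by 1.88 (adjusted p = 0.0463), and was the only one of the 9 genes past the threshold in these 2 contrasts (1.91% and 3.94% of all genes were higher). Without Blue or without Red, the contrasts with Sst/Nppb, Mrgpra3 and Th did not pass, while that with Calca/Tac1 did. Without glia-rich cells the contrast with Calca/Tac1 was 1.44 (adjusted p = 0.0546). At equal depth 47.6% of Mrgprd cells had an Ier3 count, against 16.3% to 18.9% in the other gates.

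Btg2 was largely a gene of the Calca/Tac1 gate. Its mouse means there had a lowest value of 11.01 CPM, a median of 33.95 and a highest value of 152 (mean 52.9 ± 53.3, SD, n = 6), against at most 6.82 CPM in any mouse of the Mrgprd gate. The ranges of the 2 gates did not overlap. The Sst/Nppb values were 4.62 CPM in Blue, 0 in Red and Control and 9.69 in Control1, and the Mrgpra3 and Th values lay between 1.68 and 11.5 CPM. A value of 0 limits the level only loosely: 3 counts would have given 9.36 CPM in Red and 41.8 in Control. A Btg2 count was found in 55.95% of Calca/Tac1 cells (exact 95% interval 44.7% to 66.8%) and in 4.44% to 22.7% of the cells of the other gates. The single highest cell, in Control2, held 3 Btg2 counts of 6619 (451 CPM). Against Sst/Nppb, Btg2 was the only one of 9 genes that differed, lower in Sst/Nppb at -2.22 (adjusted p = 0.00242, where 12.7% of all genes were lower), and it did not pass without Blue (0.0714) or without Red (0.0838).

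The Mrgprd and Calca/Tac1 gates, the only pair measured in all 6 mice, were compared directly. Of 9 genes, 1 was higher in the Mrgprd gate (10.2% of all genes were) and 5 were lower (9.39% of all genes). The lower genes were Btg2 at -2.51 (adjusted p = 0.000118), Jun at -2.36 (adjusted p = 3.61e-05), Egr1 at -1.77 (adjusted p = 0.00623), Junb at -1.20 (adjusted p = 0.00601) and Jund at -0.87 (adjusted p = 0.00088). Without Blue, Egr1 (adjusted p = 0.0764) and Junb (adjusted p = 0.0876) did not pass, and with thinned cells Junb (0.128) and Jund (0.0904) did not. Btg2, Egr1 and Jund were higher in the Calca/Tac1 gate in 6 of 6 mice, and Jun and Junb in 5 of 6. The exception for both was Control, with Calca/Tac1 minus Mrgprd at -0.18 for Jun and -0.36 for Junb. It rested on 1 cell: a Mrgprd cell of Control with 3 Jun counts and 1 Junb count of 1142 in all stood at 2603 CPM for Jun and 868 CPM for Junb. Without cells under 5000 counts the Jun mean of the Mrgprd gate in Control was 147 CPM in place of 275, the differences in Control were 0.70 for Jun and 0.33 for Junb, and both genes were higher in the Calca/Tac1 gate in 6 of 6 mice. In run 1 alone 7 genes were lower in the Mrgprd gate and 1 higher, where 12.6% of all genes were lower and 10.8% higher. In the 4 mice of runs 2 to 4 alone Jun was lower (-2.29, adjusted p = 0.0047) and Ier3 higher (2.12, adjusted p = 0.0344), and no other of the 9 genes passed (3.65% of all genes were lower and 4.18% higher).

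Fos, Fosb and Ier2 did not separate these gates in all mice. For Fos, Calca/Tac1 minus Mrgprd was 1.83 in Blue, 1.22 in Red, 1.30 in Control and 1.60 in Control2, but -0.02 in Control1 and -0.11 in Control6. For Fosb it was 0.81 in Blue, 0.20 in Red, 0.68 in Control and 2.29 in Control2, but -1.52 in Control1 and -1.34 in Control6. Fosb was at 0 in the Calca/Tac1 cells of Control1 and Control6, where 3 counts would have given 40.95 and 45.5 CPM. For Ier2 it was 1.51 in Blue, 1.49 in Red and 0.53 in Control, but -1.60 in Control1, -1.69 in Control2 and -0.94 in Control6. The Ier2 level was 0 in the Calca/Tac1 cells of those 3 mice, which held 3 or 4 such cells each, where 3 counts would have given 36.2 to 45.5 CPM. None of these genes passed in this limma contrast (Fos adjusted p = 0.0821, Fosb adjusted p = 0.881, Ier2 adjusted p = 0.908). Nr4a1, which was not tested, had a mean of 15.99 ± 16.5 CPM (SD, n = 6) in the Calca/Tac1 and 6.83 ± 5.55 (SD, n = 6) in the Mrgprd gate. Within mice, Calca/Tac1 minus Mrgprd for Nr4a1 averaged 0.49 ± 1.37 on the log2 scale (SD, n = 6) and was positive in 4 of 6.

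By mean level the order for Jun was Calca/Tac1, Sst/Nppb, Mrgprd, Mrgpra3 and Th. The place of Mrgprd above Mrgpra3 rested on the 1 Control cell described above: without cells under 5000 counts the Mrgprd mean was 89.7 ± 41.5 CPM (SD, n = 6), below the 97.6 ± 8.35 CPM (SD, n = 2) of Mrgpra3. Among neighbours in this order only Sst/Nppb and Mrgprd differed by the limma contrast (Mrgprd lower, at -2.29, adjusted p = 0.000364). The contrasts of Sst/Nppb with Calca/Tac1 (-0.07, SE 0.41), of Mrgprd with Mrgpra3 (-0.18, SE 0.54) and of Mrgpra3 with Th (1.84, SE 0.61, adjusted p = 0.0855) did not pass, which does not show equal levels. In the Mrgpra3 gate Jun was the only gene of 9 that differed from Sst/Nppb (-2.11, adjusted p = 0.0236, where 1.94% of all genes were lower) and from Calca/Tac1 (-2.18, adjusted p = 0.0187, where 2.86% were), and none of 9 differed from Th, where 6.7% of all genes did. Neither Mrgpra3 call held without Blue or without Red. Jun was higher in Sst/Nppb than in Th by 3.95 (adjusted p = 3.4e-05) and lower in Th than in Calca/Tac1, at -4.02 (adjusted p = 3.48e-05). Fos, Jun and Junb were the 3 genes higher in Sst/Nppb than in Th (5.48% of all genes were) and also the 3 lower in Th than in Calca/Tac1 (4.35% were); without Blue, Fos and Junb passed in neither contrast, and without Red, Fos passed in neither and Junb not against Calca/Tac1 (0.0852). Between Mrgprd and Sst/Nppb, Jun, Junb and Jund were lower in Mrgprd (6.01% of all genes were) and Ier3 higher (13.1% were).

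Co-variation across cells was measured as Spearman's rho within each mouse and averaged over the 6 mice. These are descriptions over cells that share library depth, class and sort, and no test was made of them. The median over the 45 pairs was 0.147, 40 pairs were positive, and 7 pairs exceeded 0.3. The strongest were Jun with Junb (0.46, from 0.17 to 0.64 over mice), Fos with Egr1 (0.46, from 0.35 to 0.66) and Egr1 with Nr4a1 (0.44, from 0.31 to 0.67). Fos with Jun (0.35), Fos with Nr4a1 (0.35), Fos with Fosb (0.33) and Junb with Btg2 (0.31) followed. Jun with Junb, Fos with Egr1, Egr1 with Nr4a1, Fos with Nr4a1 and Junb with Btg2 were positive in 6 of 6 mice, and Fos with Jun and Fos with Fosb in 5 of 6.

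**Figure D4:**
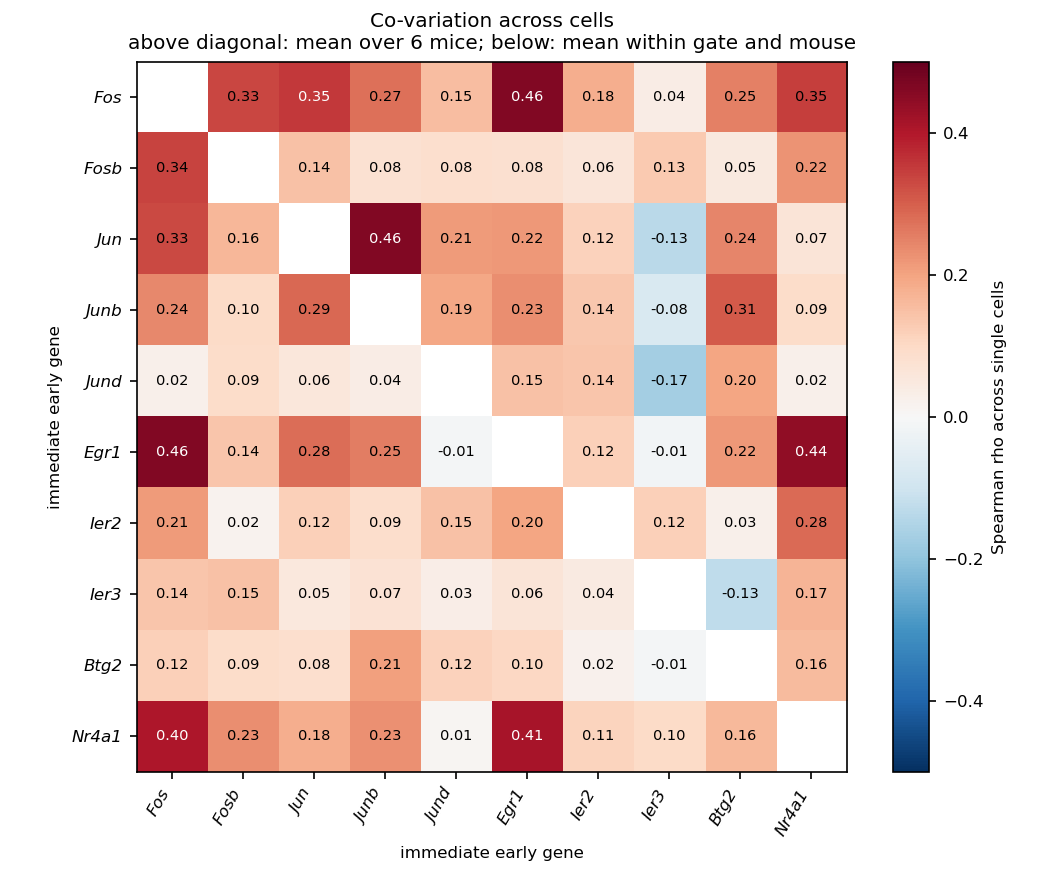
Spearman's rho across single cells for the 45 pairs of immediate early genes (colour and printed value). Above the diagonal is the mean over 6 mice. Below it is the mean over up to 14 groups of cells of 1 mouse and 1 gate. Pairs with Nr4a1 or Btg2 have at most 11 such groups and pairs with Ier2 at most 13. Fos, Egr1 and Nr4a1 are strongly coloured on both sides, whereas Jun with Junb falls from 0.46 to 0.29 and the negative values of Ier3 are near 0 below the diagonal.

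Some of these values were lower within gates and others were not. A group in which a gene had no count gives no rho for that gene. The values within gates therefore rest on at most 11 groups for Nr4a1 and Btg2 and on at most 13 for Ier2. Within groups of cells of 1 mouse and 1 gate (14 groups with at least 8 cells, an alternative added after the data were seen), Fos with Egr1 was again 0.46, Egr1 with Nr4a1 was 0.41, Fos with Nr4a1 0.40, Fos with Fosb 0.34 and Fos with Jun 0.33. Jun with Junb fell to 0.29 and Junb with Btg2 to 0.21. Jund with Jun was 0.21 over all cells and 0.06 within gates. Ier3 was negatively related to Jund (-0.17), Jun (-0.13), Btg2 (-0.13) and Junb (-0.08) over all cells. Within gates the same pairs were at 0.03, 0.05, -0.01 and 0.07. The median over the 45 pairs within gates was 0.118.

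The same relations appear in which cells had a count. A Fos count was found in 83.6% of the 189 cells with an Egr1 count and in 54.9% of the others. An Egr1 count was found in 88.1% of the 59 cells with an Nr4a1 count and in 43.9% of the others, and a Fos count in 94.9% and 64.7% of the same cells. These shares rise with depth, and Nr4a1 itself had a rho of 0.25 with the counts per cell (0.22 within gates). In cells thinned to 10000 counts, where most genes have 0 or 1 count, the median over pairs was 0.090, no pair exceeded 0.3, and the strongest were Egr1 with Btg2 and Jun with Junb (both 0.28), Fos with Egr1 (0.28) and Fos with Junb (0.27).

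Satellite glia markers moved most with 3 of the 10 genes. Across the cells of a mouse, the rho with the summed satellite glia markers was 0.41 for Nr4a1, 0.38 for Egr1 and 0.25 for Fos, and 0.50, 0.37 and 0.28 within gates. For the other 7 genes it lay between 0.01 (Ier3) and 0.20 (Junb). The sum reached 1000 CPM in 28.3% of the 371 cells, from 5.26% of the cells of Control1 and 14.3% of Blue to 56% of Control and 65.2% of Control2.

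**Figure D5:**
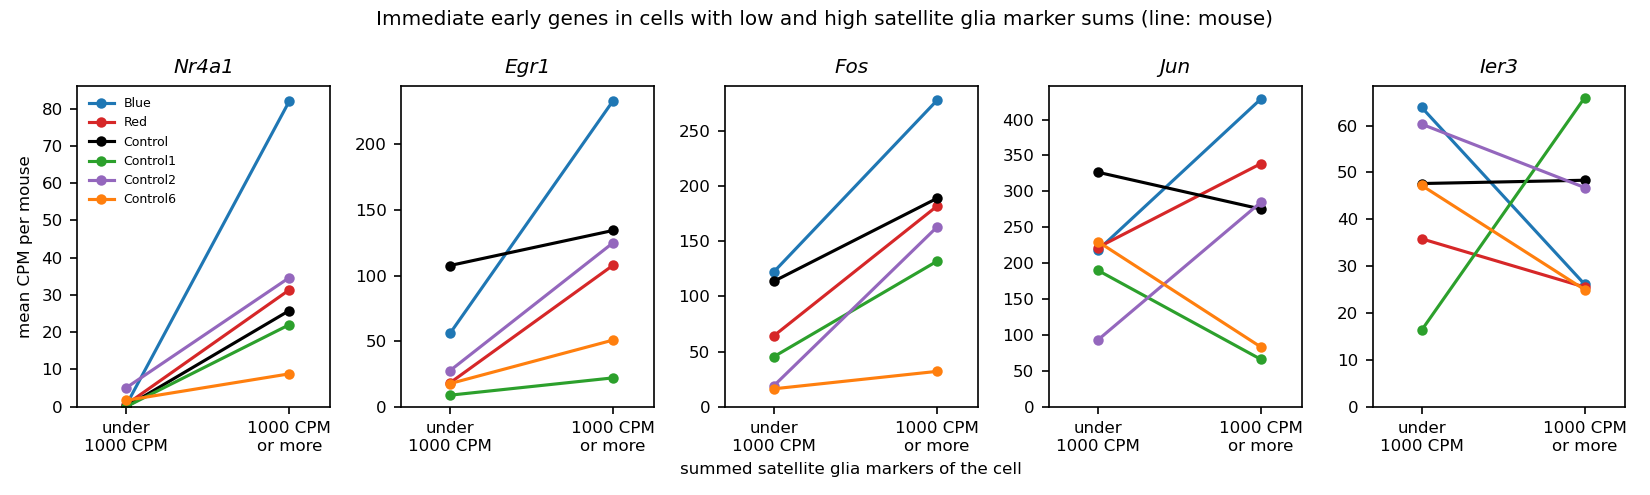
Mean level per mouse (CPM, vertical axes start at 0) of 5 genes in cells whose satellite glia markers summed to under 1000 CPM and to 1000 CPM or more; a line joins the values of 1 mouse. Nr4a1, Egr1 and Fos are higher on the right in 6 of 6 mice, and Jun and Ier3 in 3 and 2 of 6.

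In cells of 1000 CPM or more, Nr4a1 had a mean of 34.1 ± 25.1 CPM (SD, n = 6), against 1.29 ± 1.95 in the other cells. Egr1 had 112.3 ± 73.9 against 39.3 ± 37.3 CPM, and Fos 163 ± 80.4 against 63.5 ± 45.9 CPM. All 3 were higher in 6 of 6 mice, although Control1 had a single cell above the limit. Jun had 246 ± 144 against 213 ± 75.2 CPM and was higher in 3 of 6 mice, and Jund 193 ± 37.1 against 188 ± 44.3 CPM in 2 of 6. Without these cells, Fos with Egr1 was at 0.19, Egr1 with Nr4a1 at 0.11 and Jun with Junb at 0.39, and the median over the 45 pairs was 0.103. Control and Control2 had the highest Egr1 and Nr4a1 levels and the highest median glia sums, 1930 and 2115 CPM. The other 4 mice had median sums of 265 to 342 CPM. Blue had the lowest median sum, 265 CPM, yet an Egr1 level of 81.3 CPM, near the 91.1 CPM of Control2. In Control, Egr1 was at 122.7 CPM, or 86.4 CPM without cells under 5000 counts. Nr4a1 was at 12.1 CPM in Blue and 14.4 CPM in Control. In the gate comparisons, leaving out the cells of 1000 CPM or more kept 4 genes higher in the Calca/Tac1 gate (Jun 2.67, Btg2 2.29, Egr1 2.26 and Junb 1.37). Only Blue, Red, Control1 and Control6 were then left in that gate. In that fit 6.58% of all genes were higher. Whether the counts came from the neuron or from adhering glia was not tested.

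Depth per cell was related to Jun at -0.31 and to Ier3 at 0.33 over the cells of a mouse, and at -0.07 and 0.04 within gates, the Mrgprd gate being the deepest and the Sst/Nppb and Calca/Tac1 gates the shallowest. With thinned cells Jun was higher in the Calca/Tac1 gate by 2.44 (adjusted p = 0.000132) and Ier3 in the Mrgprd gate by 2.28 (adjusted p = 0.0272), while Jund in the Mrgprd gate was at -0.48 and did not pass (adjusted p = 0.148).

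The genes most like the group were ranked by the mean over mice of their rho with the mean log2(CPM + 5) of the 10 genes, among 7133 genes whose median rho was 0.041. They were Zeb2 (0.48), a transcriptional repressor, Camk2g (0.47), a subunit of calmodulin kinase II, Map1b (0.47), a microtubule protein, S1pr3 (0.46), a receptor of sphingosine 1-phosphate, Ppp3ca (0.45), the catalytic subunit of calcineurin, Celf4 (0.44), an RNA-binding protein, Gpm6b (0.43), a membrane proteolipid, Abca8a (0.43), a transporter, Lpar1 (0.42), a receptor of lysophosphatidic acid, and Ednrb (0.42), the endothelin B receptor. Within gates they fell apart: Gpm6b and Abca8a (both 0.41), Ednrb (0.40) and Zeb2 (0.39) kept values near those over all cells, whereas Camk2g and Map1b (both 0.14), Celf4 (0.08) and Ppp3ca (0.02) did not. Lpar1 (0.31) and S1pr3 (0.28) lay between. Zeb2, Gpm6b, Abca8a and Ednrb had a count in 40.97%, 34.2%, 25.9% and 25.3% of cells, Map1b in 99.7%. Whether the counts of these genes came from the neuron or from adhering glia was not tested.

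Other genes of the response were counted over lists. Of 29 other immediate early genes 11 were tested, and in the Calca/Tac1 gate 4 of them were higher (7.47% of all genes were): Klf6, a zinc finger factor, Gadd45g, a stress-induced growth regulator, Myc, and Nfkbia, the inhibitor of NF-kappaB. The 11 genes had a median log2 difference of 0.74. Klf6 was at 268 ± 114.9 CPM (SD, n = 6) in that gate and at 31.8 to 87.9 CPM on average in the other 4, a difference of 2.08 (SE 0.28, adjusted p = 2.0e-05). Gadd45g was at 70.1 ± 37.4 CPM (SD, n = 6) against 10.1 to 30.2 CPM, a difference of 2.11 (SE 0.36, adjusted p = 0.00029). In the other gates, 2 of the 11 were lower for Mrgprd (Gadd45b and Klf6, with 4.98% of all genes), none passed for Mrgpra3, 1 was lower for Th (Nfkbia, -1.53), and for Sst/Nppb 1 was higher (Gadd45b, 2.34) and 2 were lower (Homer1, -1.25, and Rhob, -1.73).

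Of 15 other AP-1 partners, such as the Atf and Maf genes, 7 were tested and none passed in any of the 5 comparisons. Of 22 feedback regulators, the phosphatases, Sprouty and Spred proteins that damp ERK signalling and the RNA-binding proteins that destroy early mRNAs, 15 were tested. In the Sst/Nppb gate, where 13% of all genes were lower, 5 were lower (Dusp6, Spred1, Spred2, Spry2 and Spry4). Spry2 was at 7.12 ± 7.33 CPM (SD, n = 4) there and at 117.7 ± 0.239 CPM (SD, n = 2) in the Th gate, with a difference of -2.22 for Sst/Nppb (adjusted p = 0.000994). Spred2 was at 0 CPM in the Sst/Nppb cells of all 4 mice and at 9.86 to 26.4 CPM on average in the other gates (adjusted p = 0.000393). In those Sst/Nppb cells 3 counts would have given 8.46 CPM in Blue, 9.36 in Red, 41.8 in Control and 52.3 in Control1. The 0 thus limits Spred2 only loosely in Control and Control1. Spry2 did not pass without Red (adjusted p = 0.0972), and Spred2 did not with thinned cells (0.253). In the Th gate Spry2 (2.54) and Spry4 (1.79) were higher, in the Calca/Tac1 gate Spred1 (1.59) and Zfp36 (1.84), and in the Mrgprd gate Nab1 (1.82). Of 27 tested upstream kinases and factors, 3 were higher in the Mrgprd, 1 in the Mrgpra3 and 3 in the Sst/Nppb gate, and 1, 1 and 2 were lower in the Sst/Nppb, Th and Calca/Tac1 gates. Camk2a, the alpha subunit of calmodulin kinase II, was at 10.6 ± 1.48 CPM (SD, n = 2) in the Th gate and 233 to 1073 CPM on average in the others, a difference of -4.90 (adjusted p = 2.2e-11). Mapk3, which encodes ERK1, was at -0.63 (adjusted p = 0.0018) in the Sst/Nppb gate, and did not pass there with thinned cells (0.0863) or without Red (0.0760).

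Of 16 heat shock genes, all tested, 1 was lower in the Calca/Tac1 gate (Hsph1, -0.44) and 1 in the Mrgprd gate. In the Sst/Nppb gate 2 were higher and 3 lower, in the Th gate 1 was higher and 3 lower, and in the Mrgpra3 gate none passed. Hspb1, a small heat shock protein, was lower in the Mrgprd gate at -2.72 (adjusted p = 3.66e-05), with 47.95 ± 60.4 CPM (SD, n = 6) there and 677 ± 30.5 CPM (SD, n = 2) in the Th gate. Hsp90ab1 was higher in the Sst/Nppb gate by 0.58 (adjusted p = 6.71e-06). Of 9 tested genes known to rise after axon injury, 5 were higher in the Calca/Tac1 gate, where 7.47% of all genes were higher and 5.34% lower (Cacna2d1, 1.06, Gal, Gap43, 2.98, Sox11, 1.85, and Stmn4, 2.61) and 1 lower (Nts). Gal, which encodes the neuropeptide galanin, was at 199 ± 107.1 CPM (SD, n = 6) there and at 0 to 7.27 CPM on average in the other gates (adjusted p = 6.21e-08). In the Mrgprd gate 2 were higher (Flrt3 and Sox11) and 4 lower (7.19% and 4.98% of all genes), in the Sst/Nppb gate 1 higher and 3 lower, in the Mrgpra3 gate 1 higher and in the Th gate 1 lower. Nts, which encodes neurotensin and is also a known transcript of Sst/Nppb neurons, was at 619 ± 142 CPM (SD, n = 4) in that gate and at 0 to 2.72 CPM on average in the others (adjusted p = 3.98e-11). These lists were read by counts only, beside the shares of all genes given above for each gate, and their members also mark classes of neurons.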

How the data were processed

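Single tdTomato+ DRG cells of 6 mice of 1 condition were measured by digital RNA sequencing, each cell as its own library. The deposited unit is a signal, in which every count of a cell is multiplied by 1 factor that no source used here gives. STAR 2.7.3a and mm10 are listed in the submitters' processing notes. Low values were whole multiples of 1 count (tolerance 0.1) for a median of 96.4% of them; whole reads were claimed in 252 of 394 columns, but all columns entered the count-based alternatives, rounded. The labels list 400 cells, and 6 without a column were not analysed here. Labels name run 3 in 2 ways, which changes no group. No 2 columns were identical, and no column was left unused. The ribosomal RNA gene Rn45s (7.10% of the signal on average) and 26 date rows were left out before scaling to CPM. The 23 cells with fewer than 500 genes held at most 388 counts and 2 counts of the 10 genes.

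The mean CPM per mouse and gate was tested as log2(CPM + 5) with limma 3.58.1 (R 4.3.3; trended prior, mouse as a block, since cells of a mouse share the animal, Benjamini-Hochberg over all genes tested, threshold 0.05). Alternatives used pseudocount 1, no filter, the mean of log values over cells, cells of several gates, at least 5 cells, thinned cells, no glia-rich cells, no block, each mouse left out, single runs, edgeR 4.0.16 with TMM and DESeq2 1.42.0 on recovered counts. Leaving out cells under 5000 counts, pairwise contrasts and rho within gates were added after the data were seen. The limma fit was tested on simulated data for the Calca/Tac1 comparison only. It recovered 44% of 2-fold and 90% of 4-fold changes (100 genes each), with 2 false calls among 8890 genes. The simulated means held no mouse effects and no gate differences outside the changed genes. Counts were drawn per mouse and gate and not per cell, so single shallow cells played no part. These rates may therefore not hold for the fit to the real cells. The comparisons of the other gates were not checked in this way. Mice are the replicates, and intervals for shares of cells cover counting error only. The genes and lists were chosen with earlier results of these data known. Named were the 10 genes, up to 2 genes of smallest p per list past the threshold and the 10 genes most like the group (mean of at least 20 CPM, a count in at least 20% of cells); further list genes are named only where they make up a count.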

Additional observations from a re-analysis of the deposited data

Results flagged for a closer look

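In 40 groups of 4 or 6 mice, the level of a gene was checked for a mouse far from the others. Of these groups, 6 held one. The limit used flags about 1 in 20 groups of independent, normally distributed values. The groups here share cells and mice, and some means rest on 3 or 4 cells, so that rate does not apply to them. Jun in the Mrgprd gate was 275 CPM in Control and 22.7 to 110 CPM in the other 5 mice. Egr1 in the Mrgprd gate was 87.4 CPM in Control and 2.75 to 29.3 CPM in the other 5. Without the 2 cells of this group under 5000 counts, Control stood at 147 CPM for Jun and 44.1 CPM for Egr1, still the highest values. Fosb in the Sst/Nppb gate was 374 CPM in Control, where 4 cells entered, and 6.72 to 52.4 CPM in the other 3 mice; without 1 cell with 2 Fosb counts of 1412 it was 31.4 CPM, within their range. Nr4a1 in the Sst/Nppb gate was 24.4 CPM in Control and 0 in the other 3 mice. With 3 mice at 0, any count in the remaining mouse is flagged. In Control only 25% of the 4 cells had a count, and the shallow cell had none (32.5 CPM without it). At 0, 3 counts would have given 8.46 CPM in Blue, 9.36 in Red and 52.3 in Control1. Jund over all kept cells was lowest in Control, at 147 CPM against 188 to 212 CPM, and was 176 CPM without cells under 5000 counts. Jund in the Sst/Nppb gate was 381 CPM in Control1 (4 cells) and 219 to 247 CPM in the other 3 mice.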

How the results depend on the processing

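The calls of the 10 genes and of the other named genes, with Fos in the Calca/Tac1 gate and against the Mrgprd gate, were followed under every alternative, and none changed sign (621 and 176 values). Of the former 501 kept their side of the threshold, 14 newly passed and the rest no longer passed, and of the latter 172 kept it and 4 no longer passed (Mapk3 in 2 settings, Spred2 and Spry2 in 1 each). Over all 45 pairs of a tested gene and a gate comparison, calls or not, 58 of 780 values had the opposite sign, in 19 pairs. None of these 19 had passed at first, and Fosb in the Sst/Nppb gate (0.92) passed with the opposite sign (-0.88) with at least 5 cells and in run 1 alone. The number of members past the threshold did move. With at least 5 cells per mouse and gate it was 5 in the Mrgprd (19.8% of all genes) and 2 in the Mrgpra3 gate (17.9%). In the Sst/Nppb gate it was 6 (34%), in the Th gate 5 (33.1%) and in the Calca/Tac1 gate 8 (22.4%). In run 1 alone it was 5 (20.2%), 1 (18.4%), 6 (34.3%), 5 (33.5%) and 8 (22.9%) in the same order. In both, the Sst/Nppb count was 3 higher and 3 lower. With the first, only Blue and Red remained outside the Mrgprd gate. With edgeR it was 4 for Mrgprd (28% of all genes), 1 for Mrgpra3 (18.2%) and 9 for Calca/Tac1 (26.1%). With DESeq2 it was 7 for Calca/Tac1 (21.9%). With thinned cells it was 1 for Mrgprd (7.3% of all genes) and 1 for Sst/Nppb (6.02%). Without a filter (11%), and with mean log values (27.8%), it was 1 for Sst/Nppb. Without the replicate block it was 1 for Sst/Nppb (21.3% of all genes) and 2 for Calca/Tac1 (14.7%). Cell numbers pair nothing across mice. Leaving out each mouse gave 0 to 4 for Mrgprd, 0 to 0 for Mrgpra3, 1 to 2 for Sst/Nppb, 0 to 3 for Th, 1 to 6 for Calca/Tac1 and 4 to 7 for Mrgprd against Calca/Tac1. Except where fewer mice or genes entered, the cause was not tested. Runs 2 to 4 alone gave no value for the comparisons of 1 gate with the other 4, since no mouse there had 3 cells in the Mrgpra3 or Th gate; Mrgprd against Calca/Tac1 gave 2. Over all genes, the calls ranged from 429 to 2489 for Mrgprd, 6 to 1660 for Mrgpra3, 542 to 3098 for Sst/Nppb, 120 to 3025 for Th and 454 to 2319 for Calca/Tac1, against 1114, 257, 1781, 805 and 1173. The median rho over pairs lay between 0.058 (Sst/Nppb cells only, where 36 of the 45 pairs had a value) and 0.189 (without Control6). Depth limits the rarer genes: at 0 in a mouse and gate, 3 counts would have given 1.70 to 52.3 CPM.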
